A study of Mus musculus with 4 samples.

Results

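The genes examined here encode the keratins and the desmosome proteins of the colonic epithelium. The 10 genes were picked by symbol, by a rule that uses none of their values although earlier results of these data were known, from the 16015 genes of the deposited table, and each symbol matched 1 gene. They fall into the type II keratins *Krt7* and *Krt8*, the type I keratins *Krt18*, *Krt19* and *Krt20*, the desmosomal cadherins *Dsg2* and *Dsc2*, and the desmosomal plaque proteins *Dsp*, *Jup* and *Pkp2*. RNA was sequenced in bulk from isolated colonic epithelial cells of 4 mice, 2 labelled WT, called control here, and 2 labelled *Bmal1* cKO, to ask how the clock gene *Bmal1* bears on colitis. Per the study's methods, the cKO mice carried floxed *Bmal1* (fl/fl) with Villin-CreERT2, a tamoxifen-inducible Cre recombinase under a promoter of the gut epithelium, and received tamoxifen on 5 consecutive days, while the control mice carried *Bmal1* fl/fl. The methods describe the mice of the study as C57BL/6 littermates of 2 to 4 months, and whether the control mice also received tamoxifen is not given in the sources used here. All 4 mice drank 3% dextran sulfate sodium (DSS), a polysaccharide that injures the colonic epithelium, over 5 days, were returned to water for 2 days and gave cells on day 7, so that no uninjured colon is among the samples.

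Keratins are the intermediate filaments of epithelial cells, and each filament is built from pairs of 1 type I and 1 type II protein, so that a cell needs both types in matched amounts. In the simple epithelium of the colon *Krt8* is the main type II partner of *Krt18*, *Krt19* and *Krt20*, and mice that lack *Krt8* are known to develop colonic inflammation. Desmosomes rivet neighbouring cells together, with the cadherins *Dsg2* and *Dsc2* bridging the gap between the cells, plakoglobin (*Jup*) and plakophilins bound to the tails of the cadherins, and desmoplakin (*Dsp*) anchoring the keratin filaments to this plaque.

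The files hold normalized counts, in which the read count of each gene is scaled by a size factor for the library, and the reads behind them were recovered as whole numbers. They ranged from 10312791 to 14156639 reads on the listed genes per library. The targeted gene, listed as *Arntl*, had 358 and 342 normalized counts in the control libraries and 341 and 289 in the libraries labelled cKO. Its log2 fold change was -0.16 ± 0.14 (SE; adjusted p = 0.389, limma). Corrected for base composition as described below, it was -0.55 (adjusted p = 0.0403). The paper reports that BMAL1 was abolished in the gut epithelium of its knockout mice, by immunoblot and immunohistochemistry. In these libraries the sum over a whole gene does not show which exons were read, and the label cKO is therefore used below as a label. All 15 colonic epithelial markers were in the table. Their summed normalized counts were 174250 and 241370 in the control libraries and 130940 and 151760 in those labelled cKO. *Muc2*, the leading marker, alone gave 62753 and 101740 of these in the controls and 24129 and 37690 in the cKO libraries. Of the 15 markers 7 were lower and 2 higher, or 3 lower and 3 higher after the correction described below (all genes 27.7% and 29.0%, corrected 17.1% and 16.7%).

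RNA of other cell types was unequal between the groups. Summed normalized counts of 14 leukocyte markers were 12914 and 20444 in the control libraries and 1312 and 1473 in those labelled cKO, and 12 of the 14 were lower with none higher. Of 12 fibroblast and smooth muscle markers 10 were lower, with sums of 16904 and 4794 against 536 and 602, and 6 of 6 endothelial markers were lower, with sums of 1714 and 399 against 60.7 and 83.8. The squamous epithelium list was low, with sums of 221 and 232 against 115 and 55.4, and its defining genes *Krt5*, *Krt4* and *Trp63* were among the 7 of 12 not listed, while 1 of its 4 tested genes was lower. Mesothelial markers summed to 177 and 163 against 112 and 90.6 and glial and neuronal markers to 81.9 and 119 against 44.2 and 21.6, with 1 of 3 tested genes lower in each list. The part of these cells in the differences below was not tested, and in bulk RNA fewer cells of a type and less RNA per cell cannot be told apart.

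Fold changes across the table also followed base composition. Across 13975 tested genes the log2 fold change had a Spearman correlation of -0.62 with the GC content of the transcript, as a description across genes, and the median fell from 1.16 in the lowest of 10 equal classes by GC content to -1.37 in the highest. Each change is therefore given first on the deposited scale and then after a loess adjustment, made in each library, for GC content and transcript length, called corrected below. The plot of change against GC content places the members on this trend. *Dsc2*, at 42.5% GC, lay at the end where most genes were higher, and *Krt8*, *Krt18*, *Krt19* and *Jup*, at 56.4% to 58.8% GC, lay where most genes were lower.

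**Figure D1:**
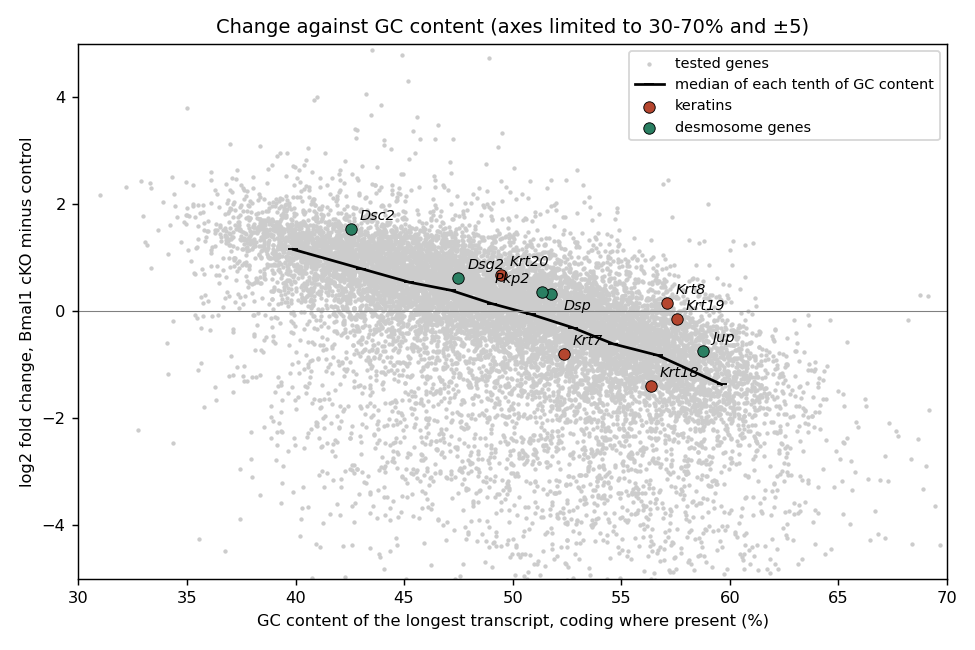
Each grey point is 1 tested gene, with the GC content of its longest transcript, coding where it has one (%), on the x axis and its log2 fold change, *Bmal1* cKO minus control, on the y axis; the black line joins the medians of the 10 classes of GC content. The line runs from 1.16 at low to -1.37 at high GC content, *Krt8*, *Krt19* and *Jup* sit above it, and *Krt18* and *Krt7* sit below it.

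The stretches just upstream of *Krt8* and *Krt18* are shown because the ratio of this filament pair differed more between the groups than any other ratio given below. Both run 5′ to 3′ on the strand of the gene up to the base before its annotated start, from RefSeq promoters on GRCm38.p6.
*Krt8*, chr15:102004483-102004592, minus strand: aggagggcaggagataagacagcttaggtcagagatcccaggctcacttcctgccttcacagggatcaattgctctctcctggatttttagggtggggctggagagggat
*Krt18*, chr15:102027966-102028179, plus strand: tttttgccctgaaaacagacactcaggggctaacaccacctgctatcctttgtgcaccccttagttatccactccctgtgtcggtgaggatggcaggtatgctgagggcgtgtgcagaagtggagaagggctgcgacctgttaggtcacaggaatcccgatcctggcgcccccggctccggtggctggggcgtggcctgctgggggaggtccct
No letters are in capitals because neither stretch holds any of the 3 motifs searched. These were CACGTG, the E-box bound by the BMAL1 and CLOCK dimer, GGGCGG, the core of the Sp1 site, and TATAAA, the TATA box, each read on both strands from 250 bases before to 50 bases after the start. Of 32851 RefSeq promoters 7.15% held CACGTG, 35.7% GGGCGG and 13.6% TATAAA. Promoters were matched for 6 members, namely *Krt7*, *Krt8*, *Krt18*, *Krt20*, *Dsp* and *Jup*. None of the 6 held CACGTG, *Dsp*, *Jup* and *Krt7* held GGGCGG, and *Krt20* and *Krt8* held TATAAA, in *Krt8* outside the stretch printed. A match is a description of the letters in this window.

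The members lie on 5 chromosomes of the mouse genome (GRCm38). The type II keratins are on chromosome 15, with *Krt7* at 101411043 to 101430313 on the plus strand and *Krt8* at 101996698 to 102004482 on the minus strand. *Krt18*, although a type I keratin, lies beside *Krt8* at 102028180 to 102032027 on the plus strand, and the annotated starts of this pair are 23698 bases apart and point away from each other. The other type I keratins are on the minus strand of chromosome 11, *Krt19* at 100140810 to 100148665 and *Krt20* at 99428403 to 99438150, and *Jup* is on the same strand at 100368958 to 100397763. The cadherin genes are on chromosome 18, *Dsg2* at 20558074 to 20604521 on the plus strand and *Dsc2* at 20030633 to 20059554 on the minus strand. *Dsp* lies on chromosome 13 at 38151294 to 38198577 and *Pkp2* on chromosome 16 at 16213318 to 16272712, both on the plus strand.

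All 10 members passed the filter of a mean normalized count of at least 10, and 3 of them were lower and 4 higher in the libraries labelled cKO at an adjusted p under 0.05 from limma. Among all 13983 genes tested 27.7% were lower and 29.0% higher, so the shares of members called were near the background. *Krt18*, *Krt7* and *Jup* were lower, and *Dsc2*, *Krt20*, *Dsg2* and *Pkp2* were higher, while *Krt8*, *Krt19* and *Dsp* did not pass. The groups did not overlap for 9 of the 10 members, against 82.1% of all genes tested. The median log2 fold change of the members was 0.24, beside -0.037 over all genes tested. After the correction the limma fit called none of the members lower and 6 higher, against backgrounds of 17.1% lower and 16.7% higher, and the median was 0.49 beside -0.030. *Krt18* and *Krt7* were lower after it at an unadjusted p under 0.05 and *Jup* was higher. Run without it on the recovered reads, edgeR and DESeq2 called 3 members lower each, against 27.3% and 27.2% of all genes. They called 4 and 5 members higher, against 27.6% and 26.6%. The split also depended on the scaling, since scaling to the epithelial markers moved the median gene to 0.59 and gave 1 member lower and 6 higher (13.0% and 42.7% of all genes), and scaling to the library total moved it to -0.26 and gave 3 lower and 2 higher (34.9% and 22.1%).

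**Figure D2:**
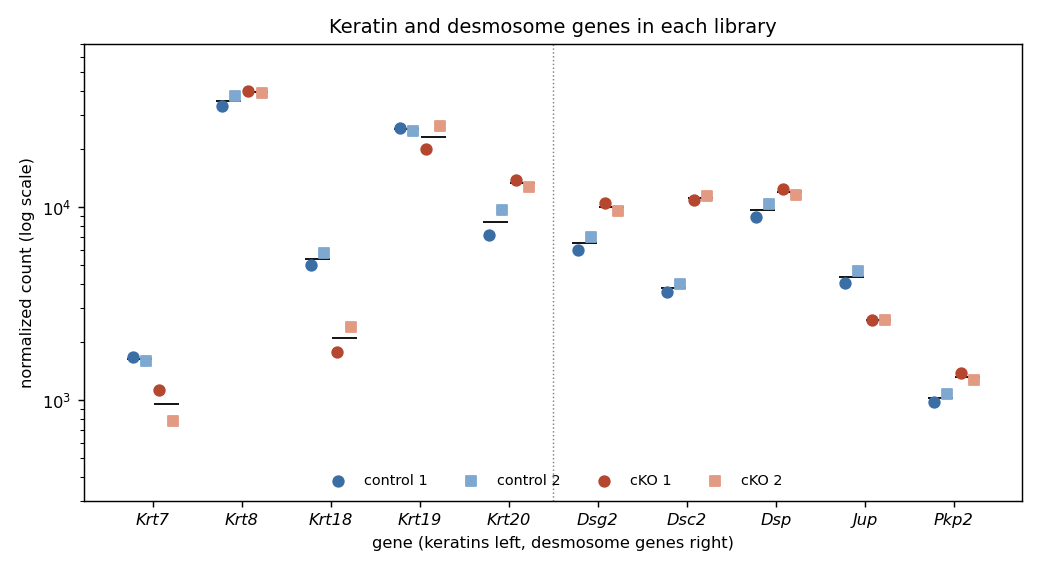
Normalized counts (log scale) of the 10 members in each of the 4 libraries; circles and squares are replicates 1 and 2, blue is control, red is *Bmal1* cKO and the bars are group means of 2 libraries. *Krt18* fell from 5004 and 5809 to 1772 and 2398 and *Dsc2* rose from 3635 and 4005 to 10822 and 11381, while the groups overlap for *Krt19*.

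*Krt8*, the main type II keratin of the colon, had 33319 and 37623 normalized counts in the control libraries and 39915 and 38937 in those labelled cKO. Both cKO values were above both control values, but the means of the groups lay closer together than the control libraries did. The log2 fold change was 0.16 ± 0.17 (SE; adjusted p = 0.450, 95% interval -0.26 to 0.57), and it did not pass the test. The genes of similar GC content had a median of -0.82, and the corrected value of *Krt8* was 1.01 (adjusted p = 0.0119). The direction turned to -0.071 with library total scaling, and with epithelial marker scaling it was 0.79 (adjusted p = 0.00994).

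*Krt7*, a type II keratin of ducts and other simple epithelia, was far less abundant. Its normalized counts were 1669 and 1585 in the control libraries and 1120 and 780 in those labelled cKO. Both cKO libraries were below both controls, and they lay further from each other than the controls did. The mean fell 1.71-fold, from 1627 ± 59.8 to 950 ± 241 (SD, n = 2), with a log2 fold change of -0.80 ± 0.18 (SE; adjusted p = 0.0146, limma). Corrected, it was -0.56 (adjusted p = 0.0638). The call was lost without control 1 (adjusted p = 0.103) or without control 2 (0.0826), and with epithelial marker scaling the value was -0.16 (adjusted p = 0.626).

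*Krt18*, the type I partner of *Krt8* in simple epithelia, fell most among the members. It had 5004 and 5809 normalized counts in the control libraries and 1772 and 2398 in those labelled cKO, and the groups lay far apart. The mean fell 2.59-fold, from 5407 ± 569 to 2085 ± 442 (SD, n = 2), with a log2 fold change of -1.39 ± 0.17 (SE; adjusted p = 0.00187, limma). The call held without each library in turn, with values between -1.60 and -1.17. Corrected, the value was -0.59 and just missed the threshold (adjusted p = 0.0532), whereas under epithelial marker scaling it was -0.75 (adjusted p = 0.00803).

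*Krt19*, a type I keratin that has a very short tail and is widespread in the gut, had 25699 and 24917 normalized counts in the control libraries and 20040 and 26178 in those labelled cKO. The cKO libraries enclosed both controls, so the groups overlapped. The log2 fold change was -0.14 ± 0.18 (SE; adjusted p = 0.513, 95% interval -0.59 to 0.30). Its sign depended on 1 library and on the processing, with 0.049 without cKO 1, 0.49 under epithelial marker scaling (adjusted p = 0.107) and 0.81 after the correction (adjusted p = 0.0293).

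*Krt20*, a type I keratin of differentiated colonocytes and goblet cells near the gut surface, moved up. Its normalized counts were 7119 and 9607 in the control libraries and 13807 and 12750 in those labelled cKO, and both cKO libraries were above both controls. The mean rose 1.59-fold, from 8363 ± 1760 to 13279 ± 747 (SD, n = 2), with a log2 fold change of 0.68 ± 0.17 (SE; adjusted p = 0.0198, limma) and a corrected value of 0.56 (adjusted p = 0.0489). The call was lost without control 1 (adjusted p = 0.0688), without cKO 1 (0.145), without cKO 2 (0.109) and with library total scaling (0.0566), where the value was 0.46.

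Ratios between keratins within a library do not depend on how the library was scaled, and *Krt8* and *Krt18* also have near-equal GC contents of 57.1% and 56.4%. Per kilobase of transcript, the ratio of *Krt18* to *Krt8* was 0.205 and 0.210 in the control libraries and 0.0605 and 0.0839 in those labelled cKO. The controls were almost equal, and both cKO libraries lay far below them. The mean ratio was 0.208 ± 0.00407 in the controls and 0.0722 ± 0.0166 in the cKO libraries (SD, n = 2). The mean log2 ratios differed by -1.54, a 2.91-fold lower ratio, and by between -1.78 and -1.31 without each library in turn. After the correction the difference was -1.60. The correction shifts genes of near-equal GC content nearly alike, so this value is not a separate check. This ratio was singled out after the values were seen, and with 2 libraries against 2 no exact permutation test can go below p = 0.333, so none was made.

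The ratio of *Krt7* to *Krt8* was 0.0240 and 0.0201 in the controls and 0.0134 and 0.00958 in the libraries labelled cKO, a log2 difference of -0.95, or -1.57 corrected, with both cKO libraries below both controls on either scale. The ratio of *Krt20* to *Krt19* was 0.227 and 0.315 in the controls and 0.563 and 0.398 in the libraries labelled cKO, and its log2 difference of 0.83 turned to -0.25 after the correction, where the groups overlapped. All type I keratins together over the type II keratins came to 1.35 and 1.27 in the controls and 1.02 and 1.24 in the libraries labelled cKO, a log2 difference of -0.22. The groups just parted per kilobase and overlapped in plain reads, and without cKO 1 the difference was -0.076. The ratio of *Krt19* to *Krt8*, added after the values were seen, was 0.958 and 0.823 against 0.624 and 0.835, and the groups overlapped.

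As shares of the 5 keratins per kilobase, *Krt8* made up 41.6% and 43.2% in the control libraries and 48.8% and 44.2% in those labelled cKO. *Krt18* took 8.51% and 9.10% in the controls and 2.95% and 3.71% in the cKO libraries. *Krt20* took 9.03% and 11.2% against 17.2% and 14.7%. On this uncorrected scale *Krt18* took a smaller and *Krt20* a larger share in both cKO libraries, and the larger share of *Krt20* did not hold against *Krt19* after the correction, as given above, while *Krt19* stayed between 30.4% and 39.9% in all 4 libraries and *Krt7* under 1%. The reads of the 5 keratins together were 0.625% and 0.663% of the library in the controls and 0.559% and 0.581% in the libraries labelled cKO.

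**Figure D3:**
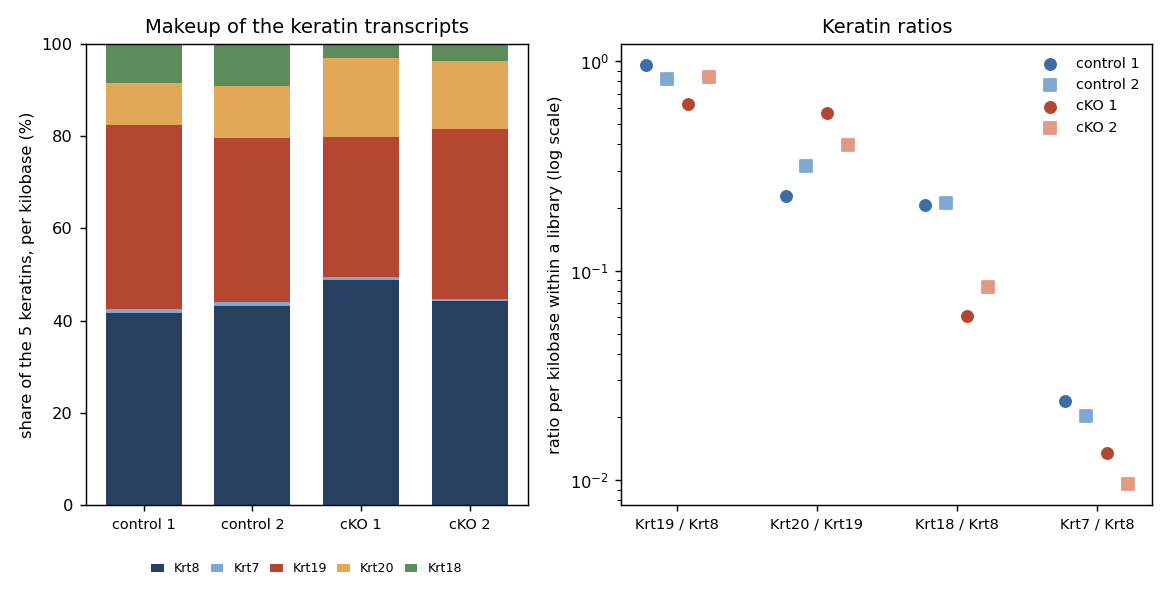
Left, the share (%) of each of the 5 keratins in their summed reads per kilobase, 1 bar per library; right, 4 ratios of keratins per kilobase within a library (log scale), 1 point per library. The share of *Krt18* is 8.51% and 9.10% in the control libraries and 2.95% and 3.71% in those labelled *Bmal1* cKO, and the ratio of *Krt18* to *Krt8* separates the groups while that of *Krt19* to *Krt8* does not.

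The desmosomal cadherins were higher in the libraries labelled cKO. *Dsc2*, desmocollin 2, had 3635 and 4005 normalized counts in the control libraries and 10822 and 11381 in those labelled cKO. The libraries of each group were close together and the groups far apart. The mean rose 2.91-fold, from 3820 ± 261 to 11102 ± 395 (SD, n = 2), with a log2 fold change of 1.54 ± 0.10 (SE; adjusted p = 5.33e-04, limma). Genes of similar GC content had a median of 0.80, and the corrected value was 0.63 (adjusted p = 0.0112). *Dsc2* was the 1 member that kept its call and its direction in all 16 alternative settings, with values between 0.63 and 2.18.

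*Dsg2*, desmoglein 2, the partner cadherin of *Dsc2* in simple epithelia, had 5975 and 6998 normalized counts in the control libraries and 10484 and 9531 in those labelled cKO. Both cKO libraries were above both controls. The mean rose 1.54-fold, from 6486 ± 724 to 10008 ± 674 (SD, n = 2), with a log2 fold change of 0.63 ± 0.13 (SE; adjusted p = 0.00947, limma). Corrected, the value was 0.21 (adjusted p = 0.257), and without control 1, cKO 1 or cKO 2 the adjusted p was 0.0542, 0.0887 and 0.0610.

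*Dsc2* had the larger fold change of the cadherin pair. Per kilobase the ratio of *Dsc2* to *Dsg2*, added after the values were seen, was 0.758 and 0.713 in the controls and 1.29 and 1.49 in the libraries labelled cKO, so that the more abundant of the pair was *Dsg2* in the controls and *Dsc2* in the cKO libraries. The log2 difference of this ratio was 0.91, and 0.42 corrected, with the groups apart on both scales. The corrected ratios were 0.907 and 0.838 against 1.09 and 1.25.

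On the deposited scale 1 of the 3 plaque genes was lower and 1 higher, and all 3 had corrected values above 0. *Jup* encodes plakoglobin, which binds the cadherin tails and is also a relative of beta-catenin. It had 4040 and 4632 normalized counts in the control libraries and 2595 and 2599 in those labelled cKO. The cKO libraries were nearly identical and both below the controls. The mean fell 1.67-fold, from 4336 ± 418 to 2597 ± 2.92 (SD, n = 2), with a log2 fold change of -0.74 ± 0.10 (SE; adjusted p = 0.00288, limma). *Jup* had the highest GC content of the members, 58.8%, in the class with a median of -1.37, and its corrected value was on the other side of 0, at 0.34 (adjusted p = 0.0736). Under epithelial marker scaling it was -0.097 (adjusted p = 0.760). The direction of *Jup* therefore depended on the correction.

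*Dsp*, desmoplakin, which ties keratin filaments to the plaque, had 8910 and 10361 normalized counts in the control libraries and 12425 and 11603 in those labelled cKO. The groups did not overlap, but the gap between the control libraries was wider than the gap between the groups. The log2 fold change was 0.32 ± 0.13 (SE; adjusted p = 0.0771, 95% interval 0.0042 to 0.64) and did not pass the test. It passed after the correction, at 0.52 (adjusted p = 0.0410), in DESeq2 on the recovered reads (adjusted p = 0.0351) and under epithelial marker scaling, at 0.96 (adjusted p = 6.55e-04).

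*Pkp2*, plakophilin 2, a plaque protein that helps to recruit desmoplakin, had 974 and 1070 normalized counts in the control libraries and 1371 and 1272 in those labelled cKO. Both cKO libraries were above both controls by a small margin. The log2 fold change was 0.37 ± 0.10 (SE; adjusted p = 0.0263, limma), and 0.47 corrected (adjusted p = 0.0238). Leaving out any 1 library ended the call, with adjusted p of 0.108 without control 1, 0.0516 without control 2, 0.122 without cKO 1 and 0.0731 without cKO 2, and library total scaling left 0.15 (adjusted p = 0.258).

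Plakoglobin was lower relative to desmoplakin on the deposited scale. The ratio of *Jup* to *Dsp* per kilobase, added after the values were seen, was 1.36 and 1.34 in the controls and 0.625 and 0.670 in the libraries labelled cKO. The groups lay far apart with little spread within each, at a log2 difference of -1.06. Unlike the pair of *Krt18* and *Krt8*, these genes differ in GC content, 58.8% against 51.8%, and the corrected difference was -0.18, with ratios of 1.01 and 0.973 against 0.811 and 0.952. Together the 5 desmosome members held 0.202% and 0.226% of the reads in the control libraries and 0.275% and 0.261% in those labelled cKO.

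**Figure D4:**
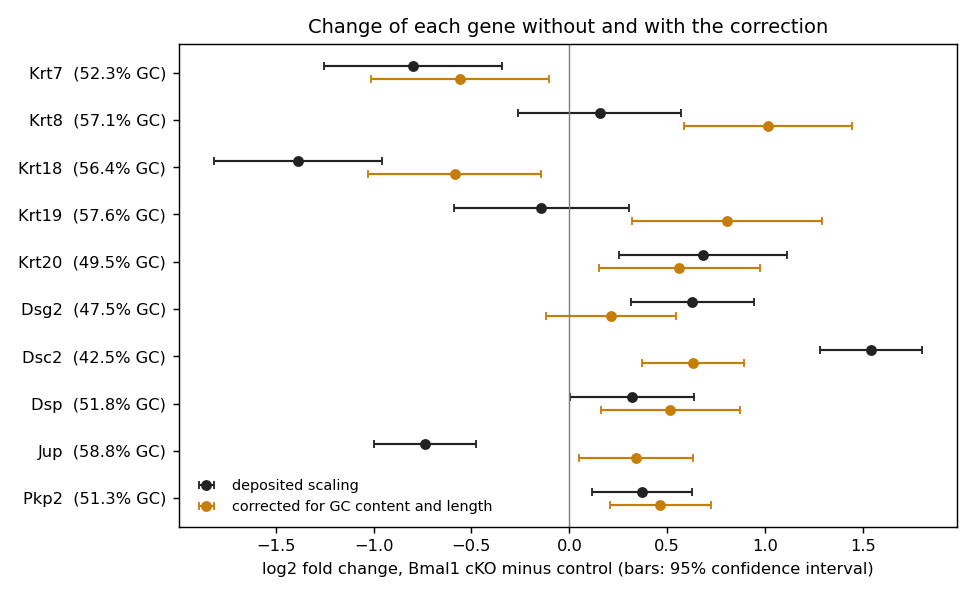
Log2 fold change of each member, *Bmal1* cKO minus control (x axis), with its 95% confidence interval as bars, on the deposited scale (black) and corrected for GC and length (orange), and with the GC content of each transcript beside its name. *Jup* moves from -0.74 to 0.34 and *Krt8* from 0.16 to 1.01, *Dsc2* stays to the right of 0 on both scales, and *Krt18* and *Krt7* stay to the left.

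The order of the levels per kilobase placed the keratins first. In the controls the mean level per kilobase was 18116 for *Krt8* and 16058 for *Krt19*, each above 99.8% of the genes tested. *Krt20* at 4340 and *Krt18* at 3762 came next and overlapped, followed by *Jup* at 1353, *Dsg2* at 1125 and *Dsp* at 1005, of which the last pair overlapped, then *Dsc2* at 825, *Krt7* at 397 and *Pkp2* at 350. In the libraries labelled cKO *Krt8* at 20136, *Krt19* at 14663 and *Krt20* at 6891 kept the first places. *Dsc2* stood at the 4th place with 2398 instead of the 8th, and *Jup* at the 8th with 810. *Krt18* stood at the 6th with 1451 and overlapped both *Dsg2* at 1736 and *Dsp* at 1252.5. Among the 5 desmosome members the most abundant was thus *Jup* in the controls and *Dsc2* in the cKO libraries. These ranks compare levels on the deposited scale.

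Of 64 other genes of the keratin and junction system, in 5 lists, 45 were in the table and 39 were tested, of which 13 were lower and 7 higher, set against 27.7% lower and 29.0% higher of all genes tested. Among the 8 other keratins tested 3 were lower and 1 higher, among the 5 other desmosome genes 2 and 1, among the 12 linkers and organizers of keratin 4 and 1, among the 4 hemidesmosome genes 2 and 1, and among the 10 adherens junction genes 2 and 3. The median log2 fold changes were -1.18, -0.049, -0.36, -0.96 and 0.073. After the correction 4 of the 39 were lower and 9 higher, against 17.1% and 16.7% of all genes. The counts of single lists are small and are given as a description. Without 1 library the other keratins gave 0 or 1 lower (1 without either control, 0 without either cKO library) and 0 higher except without control 2, where 1 was. The other desmosome genes gave 1 lower, or 0 without control 2, the linkers 2 lower without control 2 and 2 higher without control 1, and the adherens junction genes 1 lower, or 3 without control 1, and 1 higher without either cKO library. The other keratins were sparse, with summed normalized counts of 721 and 617 in the controls and 346 and 303 in the libraries labelled cKO.

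Among the named desmosome genes outside the members, *Perp*, a membrane protein of desmosomes and a known target of p53, rose from 3283 and 3464 normalized counts to 7994 and 7803, with a log2 fold change of 1.23 (adjusted p = 5.85e-04 from limma, corrected 0.91), side by side with *Dsc2* at 1.54. *Dsg3*, the desmoglein of stratified epithelia, fell from 156 and 185 to 74.1 and 25.7, with a log2 fold change of -1.93 (adjusted p = 0.0242, corrected -2.73), and lost its call without control 1 (adjusted p = 0.119) or control 2 (0.144). Its value was -1.19 without cKO 2 and -2.68 without cKO 1. It is also the leading gene of the squamous list given above. The desmogleins thus moved in opposite directions on the deposited scale, *Dsg2* at 0.63 and *Dsg3* at -1.93. *Pkp3*, plakophilin 3, had a log2 fold change of -0.40 (adjusted p = 0.0316) that turned to 0.93 after the correction (adjusted p = 0.00724) and to 0.24 under epithelial marker scaling, and it lost its call without control 2, cKO 1 or cKO 2 (adjusted p = 0.120, 0.0920 and 0.158). Of the 8 other keratins tested 1 was lower and 1 higher after the correction (all genes 17.1% and 16.7%), neither of them among the genes named here. The hair keratins *Krt84* at -2.04 (adjusted p = 0.0123) and *Krt36* at -0.77 (adjusted p = 0.0319) were lower on the deposited scale, and *Krt84* was -1.44 without control 1 and -2.64 without control 2. Neither passed after the correction, at -1.36 and -0.070, and without control 1, cKO 1 or cKO 2 neither passed (adjusted p between 0.0547 and 0.177), nor did *Krt36* without control 2 (0.0846) or under epithelial marker scaling, at -0.14 (0.767).

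Among the linkers, *Pof1b*, an actin-binding protein of epithelial cell borders, rose most on the deposited scale, though not after the correction. It went from 1218 and 1415 normalized counts in the controls to 6748 and 7725, a log2 fold change of 2.46 (adjusted p = 5.33e-04 from limma, corrected 0.97). *Plec*, plectin, which links keratin filaments to hemidesmosomes and to the rest of the cytoskeleton, fell from 8474 and 10567 to 4446 and 3797, a log2 fold change of -1.20 (adjusted p = 0.00197). Its corrected value was 0.38 (adjusted p = 0.141), so its direction, like that of *Jup*, depended on the correction. The same held for *Fam83h*, a scaffold of keratin filaments, at -1.06 and 0.36 corrected, and for the keratin-binding protein *Fbf1*, at -0.80 and 0.098 corrected, which lost its call without control 1, control 2 or cKO 2 (adjusted p = 0.100, 0.0741 and 0.0758). Under epithelial marker scaling *Fam83h* was -0.42 (adjusted p = 0.173) and *Fbf1* -0.16 (adjusted p = 0.719).

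The integrin pair of the hemidesmosome, which anchors keratins to the basement membrane, moved in opposite directions on the deposited scale. *Itga6* rose from 6002 and 6231 normalized counts to 12729 and 10993 (log2 fold change 0.95, adjusted p = 0.00194 from limma, corrected 0.72), and *Itgb4* fell from 5910 and 6892 to 2228 and 1852 (log2 fold change -1.65, adjusted p = 6.71e-04). Corrected, *Itgb4* was -0.37 and did not pass (adjusted p = 0.0964). At the adherens junction, the cell contact that lies beside the desmosome, *Nectin3* was higher at 1.68 (adjusted p = 5.33e-04, corrected 1.13) and *Nectin2* lower at -0.78 (adjusted p = 0.00322, corrected 0.17, on the other side of 0), which under epithelial marker scaling was -0.14 (adjusted p = 0.669). *Ctnnb1*, beta-catenin, the relative of *Jup*, was higher at 0.72 (adjusted p = 0.00447, corrected 0.69), though not without cKO 1 or cKO 2 (adjusted p = 0.0569 and 0.0604). *Afdn*, afadin, was higher at 0.44 (adjusted p = 0.00846) but at 0.17 corrected did not pass (adjusted p = 0.172), nor without cKO 1 or cKO 2 (0.0584 and 0.0576).

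**Figure D5:**
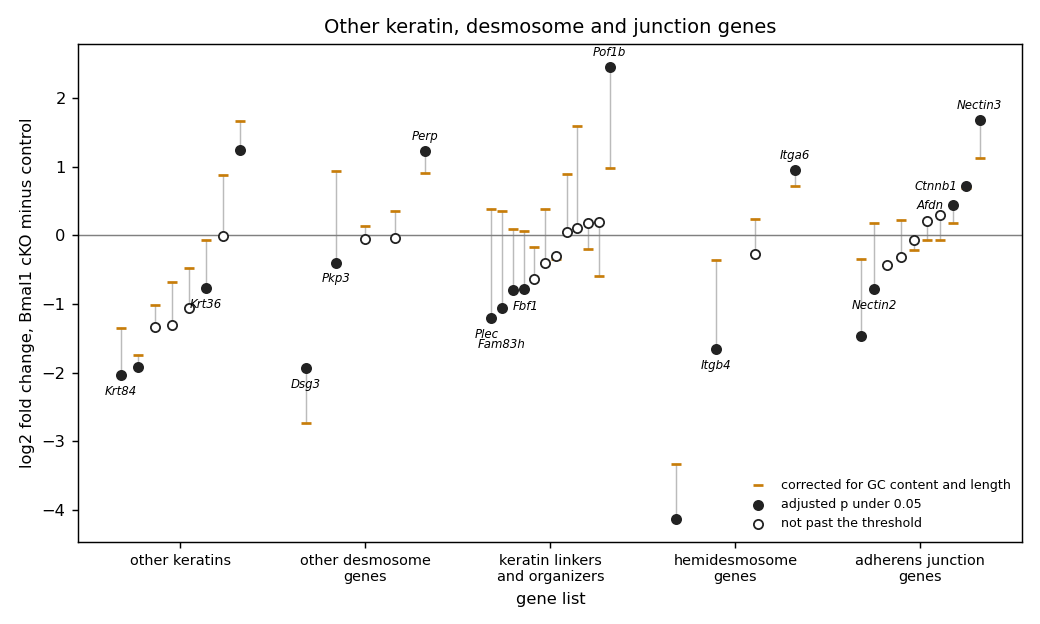
Log2 fold change, *Bmal1* cKO minus control (y axis), of the 39 tested genes in the 5 lists (x axis); filled points had an adjusted p under 0.05, open points did not, and the orange ticks joined to them are the values corrected for GC content and length. *Pof1b* at 2.46, *Nectin3* at 1.68, *Perp* at 1.23 and *Itga6* at 0.95 stay above 0 on both scales, whereas *Plec*, *Fam83h*, *Fbf1*, *Pkp3* and *Nectin2* cross it.

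The epithelial reference genes *Epcam* and *Cdh1* did not pass the test. *Epcam*, a surface protein of epithelial cells, had 17455 and 21771 normalized counts in the controls and 18588 and 20320 in the libraries labelled cKO, a log2 fold change of -0.0044 (adjusted p = 0.984 from limma, corrected 0.31). *Cdh1*, E-cadherin, had 15052 and 18761 against 12118 and 12745, a log2 fold change of -0.44 that narrowly missed the threshold (adjusted p = 0.0530, corrected -0.43). *Cdh1* was thus below 0 on both scales, while *Dsc2* was above 0 on both.

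Some counts may hold reads of other genes. Short stretches of the exons of *Krt7*, *Krt8*, *Dsg2* and *Dsp* overlap genes on the other strand, and whether the reads were counted by strand is not given in the sources used here. The overlapping genes in the table, *Gm671*, *Gm36026* and *Gm16090*, had between 4 and 27 reads per library, against 577 or more for *Krt7*, 28806 or more for *Krt8* and 7051 or more for *Dsg2*. *Krt8* also has an annotated pseudogene, *Krt8-ps*, which is not in the table, and reads shared with it could not be told apart.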

How the data were processed

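Bulk RNA sequencing of colonic epithelial cells was available for 2 control and 2 *Bmal1* cKO mice. Per the labels, the authors used STAR, DESeq2 and GRCm38 (mm10); the counter and the annotation are not given in the sources used here. The authors deposited, for 16015 genes, a signal for each library, namely gene counts divided by the DESeq2 size factor, and beside it their own mean, log2 fold change, standard error, statistic, p-value and adjusted p-value, which were not used. In each library 100% of the deposited values came out as whole reads within 0.01 read (10312791 to 14156639 per library). No molecular identifiers are mentioned, so reads may include PCR copies, and the labels and the methods name different library kits. Libraries of a group differed beyond sampling noise (chi-square per gene 46.2 for control and 11.1 for cKO).

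Normalized counts were taken to log2(value + 1), a scale that makes changes of sparse genes look smaller, and limma 3.58.1 (R 4.3.3), two-sided and with a trended prior variance, compared the 13983 genes averaging 10 or more, with p-values adjusted over all of them (Benjamini-Hochberg) and called under 0.05. Lengths and GC contents are those of the longest coding transcript, or of the longest transcript of a gene without one, in GENCODE M21 (GRCm38), known for 16003 genes. The correction was a loess fit (span 0.3) per library on GC content and then length, recentred so that the median gene did not move. Alternatives were pseudocounts of 0.5 and 5, no filter and a mean of at least 50, TMM, library total and epithelial marker scaling, edgeR 4.0.16 and DESeq2 1.42.0 on the recovered reads, a replicate block, and leaving out each library. The limma fit and the correction were also run on simulated counts as a check of the code. These had the same dispersion for all genes and few changed genes, unlike the data here. The wider genes named were, per list, up to 3 falls and 3 rises of the largest size, given that they passed the test, averaged 100 or more and did not overlap between groups; *Cdh1*, *Epcam* and *Arntl* were named as references, and of the marker lists only the leading gene. The members and lists were chosen with earlier results of these data known.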

Additional observations from a re-analysis of the deposited data

How the results depend on the processing

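The limma counts were compared with 16 alternatives. Of the members 3 were lower and 4 higher; with epithelial marker scaling 1 was lower, corrected for GC and length 0, and with the replicate block and the correction together 1, and with library total scaling 2 were higher. Leaving out 1 library gave 2 to 3 lower and 1 to 3 higher, while the share of all genes called fell to between 15.8% and 20.4% lower and 19.0% and 22.6% higher; each such fit has a lone library in 1 group, which is assumed to vary like the other group. Of the wider genes 13 were lower and 7 higher, against 6 and 15 with epithelial marker scaling, 4 lower with the correction and 3 with block and correction, and 6 to 10 lower and 4 to 7 higher without 1 library.

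The direction turned for *Krt8* with library total scaling (-0.071), for *Krt19* with epithelial marker scaling (0.49), with the correction (0.81, with or without the block) and without cKO replicate 1 (range without 1 library -0.34 to 0.049), for *Pkp3* with epithelial marker scaling (0.24), and with the correction, with or without the block, for *Jup* (0.34), *Pkp3* (0.93), *Plec* (0.38), *Fam83h* (0.36), *Fbf1* (0.098) and *Nectin2* (0.17). Under the correction the log2 differences of the ratios were -0.38 for type I to type II, -0.25 for *Krt20* to *Krt19* and -1.57 for *Krt7* to *Krt8*. The cause was not tested.

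Whether same-numbered libraries share more than a number is not given in the sources used here. Their deviations from the group means had a correlation of -0.091 across genes, which cannot exclude a pairing. With the replicate block alone the members gave 3 lower and 4 higher and the wider genes 14 lower and 6 higher. Among all genes 27.1% were lower and 27.9% higher with this block. With block and correction together 1 member was lower, *Krt18* (limma adjusted p = 0.0264), and 4 instead of 6 were higher. The shares of all genes were then 14.8% and 14.2%, and *Krt20* (0.0706) and *Dsp* (0.0645) did not pass. *Dsc2*, *Perp*, *Pof1b*, *Itga6* and *Nectin3* kept their call and direction in all 16 alternatives. With 2 libraries per group the spread rests on few values. The fewest reads on a member in a library were 577, and the effect of depth was not tested.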
